A study of Saccharomyces cerevisiae with 7 samples.

Results

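Cytochrome c oxidase is the last enzyme of the mitochondrial respiratory chain and passes electrons from cytochrome c to oxygen. Its catalytic core is encoded in mitochondrial DNA. The subunits around that core are encoded in the nucleus, translated in the cytosol and imported, so their mRNAs are ordinary nuclear transcripts with untranslated regions (UTRs) of their own. In Saccharomyces cerevisiae one of these subunits has alternative isoforms: COX5A encodes the form made when oxygen is plentiful, and COX5B the form made when oxygen is scarce.

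The genes described here are 9 nuclear genes for structural subunits, chosen by name. They are COX4 (YGL187C), COX5A (YNL052W), COX5B (YIL111W), COX6 (YHR051W), COX7 (YMR256C), COX8 (YLR395C), COX9 (YDL067C), COX12 (YLR038C) and COX13 (YGL191W). All 9 were found among the 3000 protein-coding transcripts of the annotation deposited with the study, which holds 3196 transcripts in all. The study cleaved polyadenylated RNA of log-phase yeast, grown at 23 °C and folded in vitro, in 4 libraries with RNase V1, which cuts paired bases, and in 3 with nuclease S1 (labelled RNase S1), which cuts unpaired bases. The labels name no strain, mutation or other treatment. Cleavage values were not analysed here, so the nucleases are not compared, depth is unknown, and each gene has 1 annotated value with no replicate error and no test. The position of a gene among all mRNAs is given as a percentile, the share of annotated mRNAs with a shorter feature, and the share of all mRNAs that meet a criterion stands beside each count of subunit genes.

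The start codon marks where the 5' UTR ends and the coding region begins. Each line gives 9 bases before the start codon, the start codon in capitals and the next codon, read 5′ to 3′ from the R64 reference genome by gene name, with the intron of COX5B left out.
COX4: acaagcacaATGctt
COX5A: gcatctacaATGtta
COX5B: attgtaaagATGttg
COX6: tatacaacaATGtta
COX7: taataaataATGgct
COX8: cattacgcaATGttg
COX9: tacacagacATGact
COX12: ataatagacATGgct
COX13: aatagaaaaATGttt

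An A stood at the third base before the start codon, the position that most favours initiation in yeast, in 6 of the 9 subunit genes, against 66.2% of all mRNAs. COX8, COX9 and COX12 were the exceptions. The stop codon was TAA in 6 genes, TGA in COX5A and COX9, and TAG in COX7, against 48.5% TAA, 29.5% TGA and 22.0% TAG among all mRNAs.

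The subunits are small proteins, and their coding regions were short. COX4, which encodes the zinc-binding subunit IV, had the longest coding region at 468 nt, followed by COX5A at 462 nt, COX5B at 456 nt, COX6 (subunit VI) at 447 nt and COX13 (subunit VIa) at 390 nt. COX12, whose subunit VIb faces the intermembrane space, had 252 nt. The small membrane-spanning subunits had the shortest coding regions: 237 nt in COX8 (subunit VIII), 183 nt in COX7 (subunit VII) and 180 nt, or 59 codons, in COX9 (subunit VIIa). All 9 lay below the lower quartile of coding length, 651 nt, as did 24.9% of all mRNAs. COX7 and COX9 stood at percentiles 0.7 and 0.567.

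Around these short coding regions the transcripts carried long 3' UTRs. COX6 had 453 nt (percentile 99.0), COX12 291 nt (95.7), COX8 273 nt (94.8), COX5A 256 nt (93.7), COX13 246 nt (92.8), COX4 244 nt (92.6) and COX9 221 nt (89.7). COX7 had 141 nt (69.5) and COX5B 34 nt (4.34). The median over the 9 genes was 246 nt, against 106 nt over 2882 mRNAs with an annotated 3' UTR, whose quartiles were 72 and 155 nt. Thus 7 of 9 subunit genes lay above the upper quartile, against 24.9% of all mRNAs. The longest was 13.3 times the shortest. With COX5B, COX7 and COX6 left out after their values were seen, the rest ran from 221 nt in COX9 to 291 nt in COX12.

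**Figure D1:**
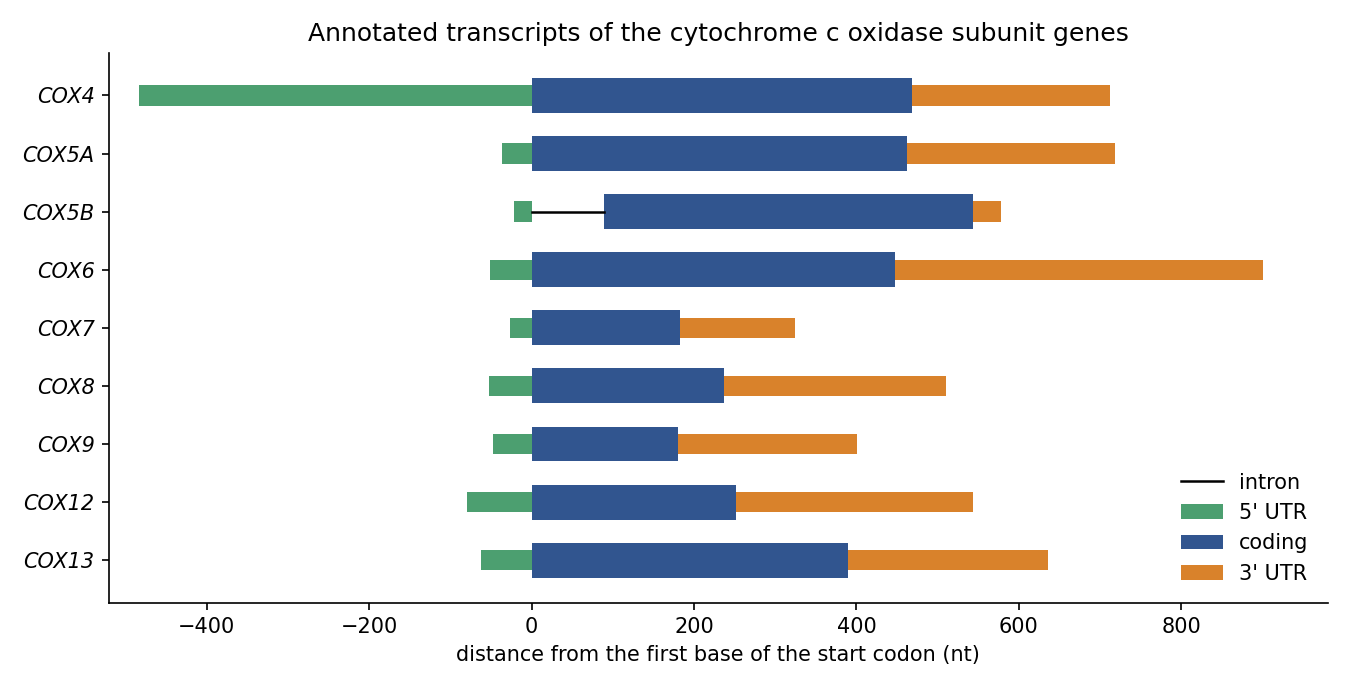
Annotated transcripts of the 9 subunit genes drawn to scale, with the distance from the first base of the start codon in nt on the x axis. Thin bars are 5' UTRs (green) and 3' UTRs (orange), thick bars coding sequence (blue) and the black line the 88 nt intron of COX5B. COX4 has a 5' UTR of 484 nt, COX6 the longest 3' UTR at 453 nt and COX5B the shortest at 34 nt.

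Subunit genes with coding regions of similar length could have 3' UTRs of different length. The relation of these lengths over all mRNAs was not tested. COX5A, COX5B and COX6 have coding regions between 447 and 462 nt, but 3' UTRs of 256, 34 and 453 nt. COX7 and COX9, with coding regions of 183 and 180 nt, had 3' UTRs of 141 and 221 nt. In COX6, COX8, COX9 and COX12 the 3' UTR was longer than the coding region, by factors of 1.01, 1.15, 1.23 and 1.15. That held for 4 of 9 subunit genes, against 1.11% of all mRNAs with a 3' UTR and 4.86% of mRNAs with both UTRs and at most 600 nt of coding sequence. Among 576 mRNAs with both UTRs and a coding region of at most 600 nt, a range that holds all 9 subunit genes, the median 3' UTR was 117.5 nt and the upper quartile 165 nt, and the same 7 subunit genes lay above that quartile.

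**Figure D2:**
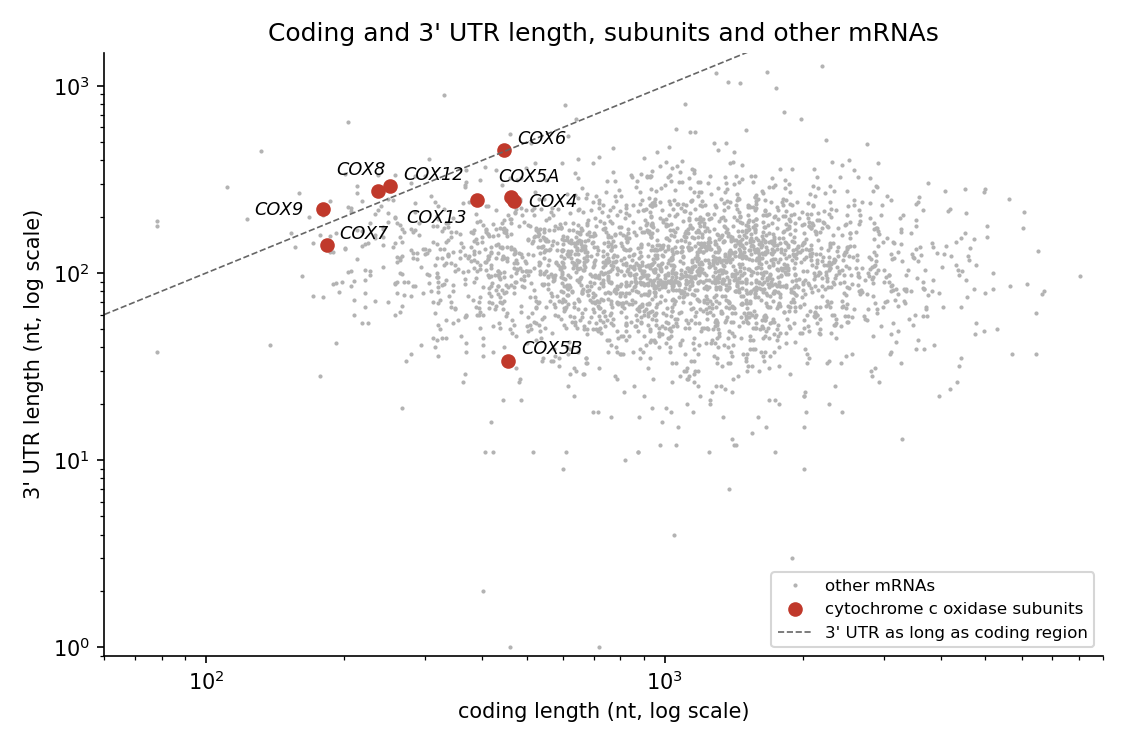
Coding length (x axis, nt, log scale) and 3' UTR length (y axis, nt, log scale) of the 9 subunit genes (red) and of other annotated mRNAs (grey, 1 point per gene). The dashed line marks equal lengths; COX8, COX9 and COX12 lie above it, COX6 lies just above it, and COX5B lies far below the other subunit genes at 34 nt.

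By the annotated lengths, most of the transcript was untranslated in 5 of the 9 genes. UTRs made up 60.9% of the COX4 transcript as annotated, 59.9% of COX9, 59.5% of COX12, 57.9% of COX8 and 53.0% of COX6. The COX4 share counts all 484 nt of its 5' UTR, which held a 342 nt stretch with the letters of an intron, described below. Without that stretch the 5' UTR would be 142 nt and the 3' UTR 244 nt, beside a coding region of 468 nt. In COX7 they made up 47.7%, in COX13 44.1% and in COX5A 38.7%. COX5B was the exception with 10.9%, below the median of 14.4% over the 2674 mRNAs with both UTRs. UTRs longer than the coding region together were found in 2.54% of those mRNAs, and in 11.3% of the small ones with at most 600 nt of coding sequence.

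The 5' UTRs were of common length except in COX4. COX5B had 22 nt (percentile 13.5), COX7 26 nt (18.5), COX5A 36 nt (32.6), COX9 48 nt (46.2), COX6 51 nt (50.2), COX8 53 nt (52.3), COX13 62 nt (59.4), COX12 79 nt (69.0) and COX4 484 nt (99.4). The median was 51 nt in the subunit genes and 50 nt over 2679 mRNAs. Only COX4 exceeded the upper quartile of 94.5 nt, as did 25.0% of all mRNAs. The 3' UTR was the longer of both in 8 of 9 genes, COX4 excepted, against 75.1% of mRNAs with both annotated. The ratio of 3' to 5' UTR was highest in COX6 (8.88) and COX5A (7.11), and 0.504 in COX4. The order and the ratio in COX4 count all 484 nt of its annotated 5' UTR. Without the intron-like stretch described next, that 5' UTR would be 142 nt, shorter than the COX4 3' UTR of 244 nt.

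The long COX4 5' UTR contained the letters of a complete intron. In the R64 sequence before the COX4 start codon, a window as long as the annotated 5' UTR, the yeast splice donor GTATGT began 354 nt upstream of the start codon, the branch point sequence TACTAAC 60 nt upstream, and the first TAG or CAG after the branch point ended 13 nt upstream. They are shown in capitals, on chromosome 7, minus strand, at R64 positions 150511 to 150534, 150216 to 150240 and 150175 to 150198.
donor: ttttgaaatGTATGTtataatcct
branch point: gaaacagtaTACTAACaatactcac
acceptor: ttgccatacaaaTAGataacaagc

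The stretch from donor to acceptor is 342 nt. Without it the COX4 5' UTR would be 142 nt, made of 130 nt before the donor and 12 nt after the acceptor, at percentile 85.4. The window held 7 ATG triplets, from 356 to 30 nt upstream of the start codon. Of these 6 lay wholly between donor and acceptor, the other crossed the donor, and none was left once the stretch was removed. GTATGT followed by TACTAAC was found in 5' UTR windows of 0.635% of all mRNAs and in no other subunit gene. Upstream ATG triplets occurred in 15.2% of all 5' UTR windows, and among the subunit genes in COX4 alone. The windows were as long as each annotated 5' UTR, 484 nt in COX4 but 22 to 79 nt in the other subunit genes. Those genes thus had much less room for either feature. Whether the annotated 5' UTR counts intron sequence was not tested, since no reads across a junction were analysed.

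COX5B was the single subunit gene with an intron in its coding region, against 6.63% of all mRNAs. The first coding exon is 1 nt long, the A of the start codon, and is followed by an intron of 88 nt in both the deposited annotation and R64. The intron is short for yeast: 40 of 206 annotated introns were shorter, and the median was 254 nt. Its first 6 bases are GCATGT, where 77.7% of the 206 R64 introns in these genes begin with GTATGT, and no other begins as COX5B does. The TACTAAC branch point sequence ends 30 nt before the 3' end of the intron. The sequences show, on chromosome 9, plus strand, the exon's last base followed by the intron start in capitals (R64 positions 155213 to 155236), the branch point (155265 to 155289) and the last bases of the intron (155299 to 155322).
intron start: attgtaaagaGCATGTataacaaa
branch point: atatccattTACTAACattcgaggt
intron end: caagttttgCAGtgttgcgtactt

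COX5A and COX5B encode related proteins of similar length, and their transcripts differed most in length at the 3' end. The proteins have 153 and 151 residues in COX5A and COX5B, and 98 of 150 aligned residues are identical (65.3%). The coding regions differ by 6 nt. The 5' UTR was 36 nt in COX5A and 22 nt in COX5B, a ratio of 1.64. The 3' UTR was 256 nt in COX5A and 34 nt in COX5B, a difference of 222 nt and a ratio of 7.53 (2.91 on the log2 scale). The COX5A transcript lay on chromosome 14 at positions 531690 to 532443 of the deposited annotation, and that of COX5B on chromosome 9 at 155197 to 155796, both on the plus strand.

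Among the 2673 other mRNAs with both UTRs, those nearest to COX5A in 5' UTR, coding and 3' UTR length, by Euclidean distance of log2 lengths, were ATP16, a subunit of the ATP synthase (distance 0.28), YER134C (0.31) and ATP14, another ATP synthase subunit (0.32). Those nearest to COX5B were MRPL51, a mitochondrial ribosomal protein (0.19), UMP1, a proteasome assembly factor (0.24), and BUD20, a ribosome biogenesis factor (0.38). The isoforms were 3.0 apart. COX5B ranked 2011 in distance from COX5A, and COX5A ranked 1582 from COX5B.

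Yeast has other gene pairs in which one copy is used with oxygen and its partner without, and their lengths were set beside those of COX5A and COX5B. HYP2 and ANB1 encode the translation factor eIF5A, and their 3' UTRs were 219 nt in HYP2 and 100 nt in ANB1. The ADP/ATP carrier genes had 275 nt in AAC2 (also named PET9) and 168 nt in AAC3. The HMG-CoA reductase genes of sterol synthesis had 145 nt in HMG1 and 81 nt in HMG2. The aerobic gene thus had the longer annotated 3' UTR in 4 of 4 pairs with both values. The ratios were 7.53 for the COX5 genes, 2.19 for the eIF5A genes, 1.64 for the carriers and 1.79 for the reductases. Read depth at these genes is unknown here. Whether low depth at the hypoxic genes, COX5B included, affected their annotated ends was not tested. CYC1, the aerobic cytochrome c gene, had 892 nt, and no transcript lengths of its hypoxic partner CYC7 were used here. The 5' UTR showed no common order: COX5A was longer than COX5B by 14 nt and AAC2 longer than AAC3 by 1 nt, but HMG1 had 81 nt and HMG2 156 nt.

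**Figure D3:**
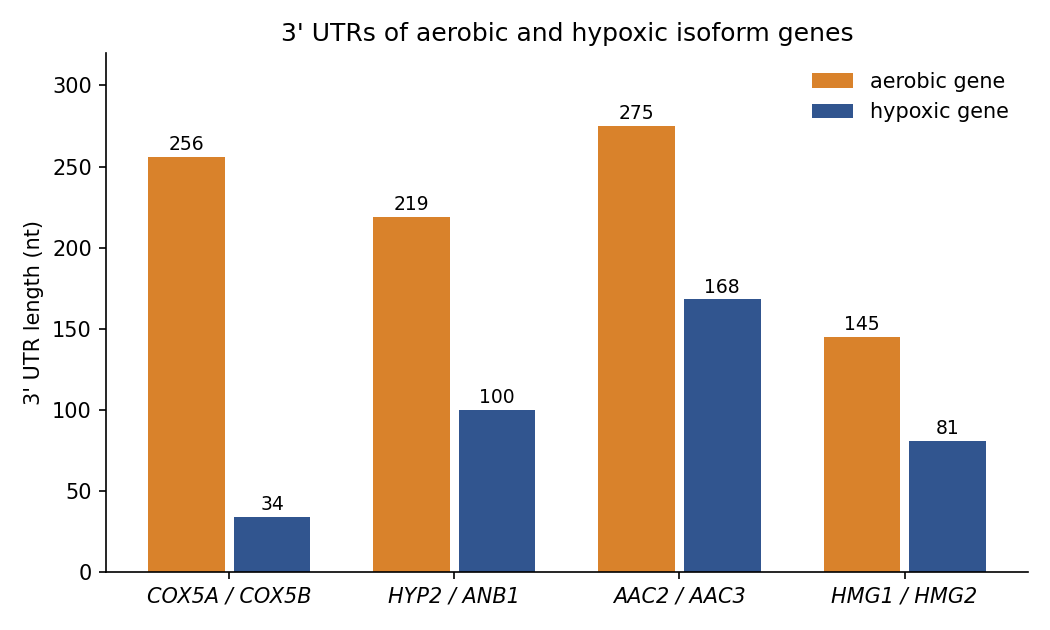
Annotated 3' UTR length in nt (y axis, from 0) of 4 pairs of isoform genes, with the aerobic gene in orange and the hypoxic gene in blue, 1 value per gene. The aerobic gene has the longer annotated 3' UTR in each pair, from 256 nt in COX5A against 34 nt in COX5B to 145 nt in HMG1 against 81 nt in HMG2. Read depth at these genes is unknown.

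The other gene lists of oxidative phosphorylation used here were the bc1 complex with cytochrome c, which pass electrons to the oxidase, and ATP synthase, which uses the proton gradient. The median 3' UTR was 246 nt in the 9 subunit genes, 188.5 nt in the 10 annotated genes of the cytochrome bc1 complex and cytochrome c, and 156 nt in the 15 genes of ATP synthase, against 106 nt over all mRNAs. Genes above the upper quartile of all mRNAs numbered 7 of 9 for the oxidase, 9 of 10 for the bc1 complex and cytochrome c, and 8 of 15 for ATP synthase. The bc1 and cytochrome c genes ran from 122 nt in QCR6, an acidic subunit, to 892 nt in CYC1, and the ATP synthase genes from 71 nt in ATP2 and ATP7 to 405 nt in ATP17. At the 5' end the medians were 51 nt for the oxidase, 89.5 nt for the bc1 complex and cytochrome c, from 46 nt in QCR7 to 289 nt in CYT1, and 51.5 nt for ATP synthase, from 23 nt in ATP15 to 298 nt in ATP1. The 3' UTR of COX5B was shorter than any of those in these other complexes.

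The proteins that build the oxidase, such as copper chaperones, heme A synthesis enzymes and translational activators of its mitochondrial mRNAs, had a lower median 3' UTR than the subunits. Of 37 such genes on the list, 25 were annotated and 24 had a 3' UTR, with a median of 119 nt. They ran from 43 nt in COX18, which exports a segment of a core subunit across the inner membrane, to 1038 nt in COX15, and 7 of 24 exceeded the upper quartile of all mRNAs. Their 5' UTRs had a median of 34 nt, from 10 nt in COX14 and COX23 to 212 nt in COX15.

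**Figure D4:**
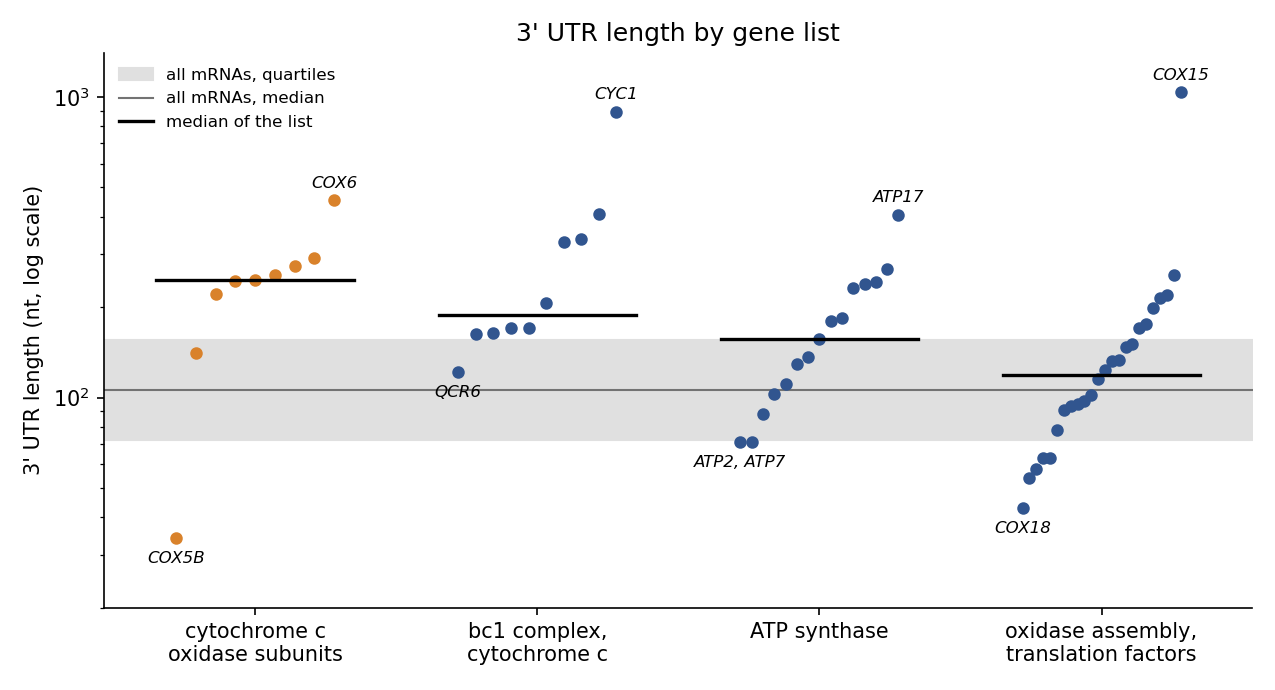
3' UTR length in nt (y axis, log scale) of each gene of 4 lists, sorted within a list, with the cytochrome c oxidase subunits in orange and the other lists in blue. Black lines are list medians (246, 188.5, 156 and 119 nt), and the grey band and line are the quartiles and median of all mRNAs (72, 155 and 106 nt).

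The RNA-binding protein Puf3 holds many mRNAs for mitochondrial proteins, with COX17, a copper chaperone for the oxidase, as the classic example. Its recognition core was searched as TGTANATA on the transcribed strand of R64, in windows after the stop codon as long as each annotated 3' UTR. Among the 9 subunit genes only COX8 had a match, 32 nt after the stop codon, against 14.6% of all mRNAs. The 24 assembly and translation factor genes had matches in 16 (66.7%), with 24 matches in all. In ATP synthase 6 of 15 genes had a match, and in the bc1 complex and cytochrome c 1 of 10, QCR9, with matches at 301 and 318 nt. Per 1000 nt of window there were 0.463 matches in the subunit genes, which is 1 match in 2159 nt, 6.14 in the assembly factors, 2.3 in ATP synthase and 1.27 over all mRNAs.

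The matches in COX8 and in 4 assembly factor genes are shown to set the letters side by side, with the motif in capitals. They lie on chromosome 12, minus strand, at R64 positions 909684 to 909703 for COX8, and 131160 to 131179 and 131115 to 131134 for COX17. The COX10 matches, of the gene for the heme A pathway's farnesyl transferase, are on chromosome 16, minus strand, at 224288 to 224307 and 224248 to 224267. That of OXA1, an inner membrane insertase, is on chromosome 5, plus strand, at 476243 to 476262, and that of SCO1, which helps insert copper, on chromosome 2, minus strand, at 310523 to 310542.
COX8, 32 nt after the stop codon: gatgtgTGTACATAgcgtgc
COX17, 32 nt: atttctTGTATATAtaagaa
COX17, 77 nt: actaccTGTAAATAtgtgcg
COX10, 52 nt: taatctTGTAAATAaatatt
COX10, 92 nt: aaataaTGTACATAcgcaca
OXA1, 21 nt: tctctcTGTAAATAtaaaaa
SCO1, 29 nt: cttcctTGTATATAcatata

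A second SCO1 match began 4 nt after its stop codon. A match in these windows is a description of letters, and binding was not measured. With windows of 300 nt the count was again 1 of 9 subunit genes, against 18.1% of all mRNAs. On the other strand of the annotated windows it was also 1 of 9, against 12.4%.

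**Figure D5:**
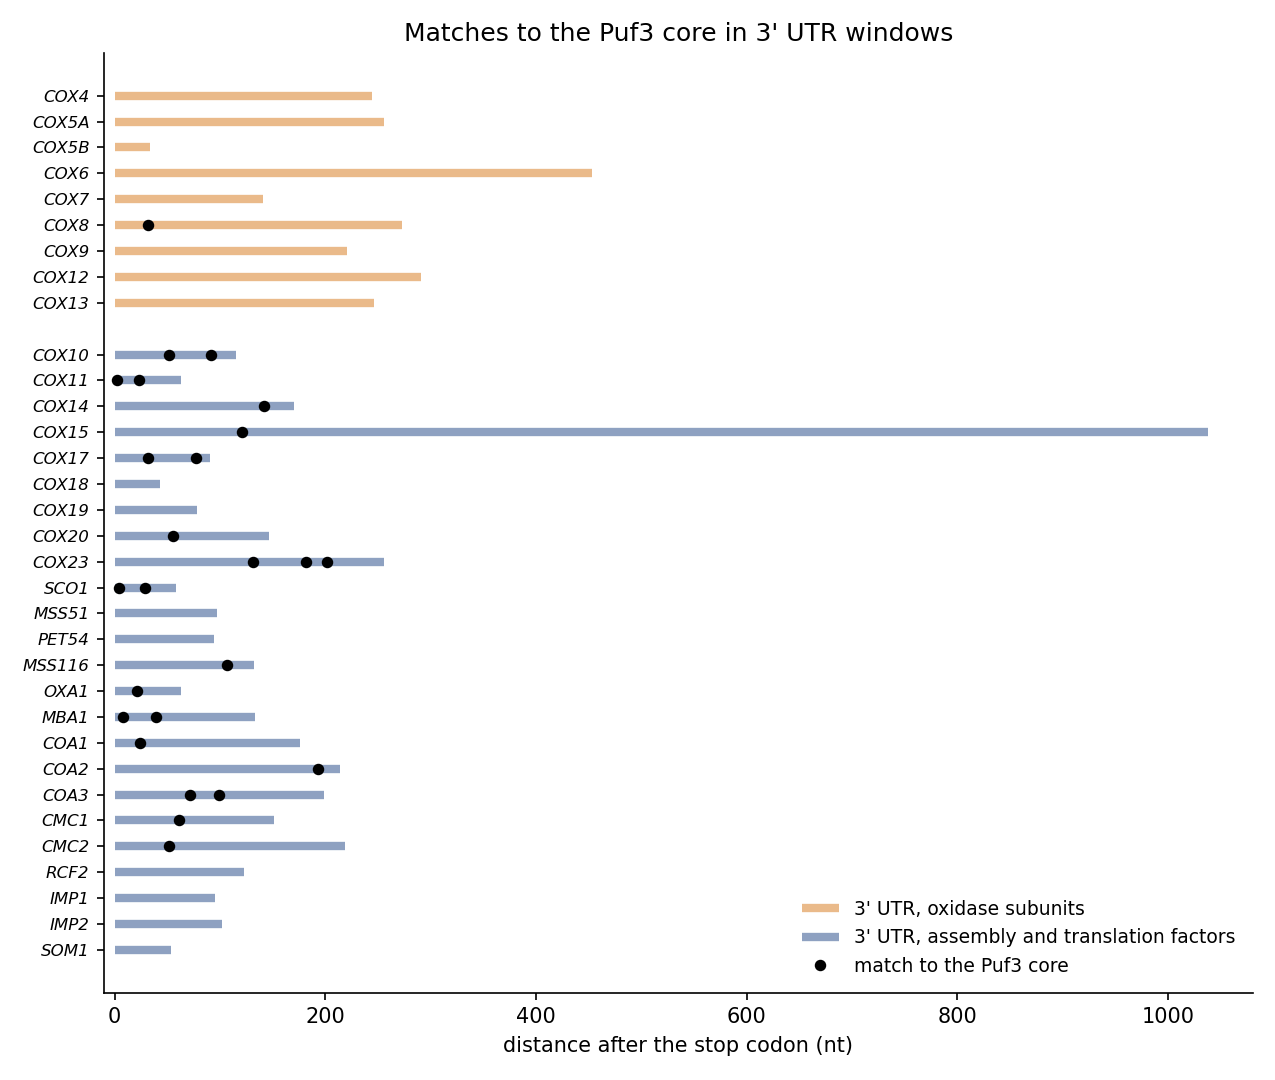
Position of each TGTANATA match (black dot, first base) in nt after the stop codon on the x axis, within the annotated 3' UTR (bar) of the 9 oxidase subunit genes (orange, above) and of 24 assembly and translation factor genes (blue, below). The subunit genes have 1 match, in COX8 at 32 nt, and the assembly factors 24 matches in 16 genes.

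The sequence of the 3' UTR windows was ordinary in base composition. The share of A and T ranged from 66.7% in COX8 and 66.8% in COX4 to 75.9% in COX7 and 77.2% in COX13, and the median over 2839 mRNAs with windows of at least 20 nt was 71.8%. TATATA, the efficiency element of yeast 3' end formation, was present on the transcribed strand in 4 of 9 windows, against 49.4% of all mRNAs. The last TATATA ended 5 nt before the annotated 3' end in COX7, 22 nt before it in COX6, 38 nt in COX8 and 51 nt in COX13. The motif shares letters with those TGTANATA matches that read TGTATATA, but the COX8 match reads TGTACATA.

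Promoters were searched 250 nt before to 50 nt after the start codon, on both strands of R64. CCAAT, the box bound by the Hap2/3/4/5 activator of respiratory genes, was found in 8 of 9 subunit genes, all but COX4, against 43.9% of all promoters. In COX4 the 250 nt before the start codon lay wholly inside its annotated 5' UTR of 484 nt, so the sequence before the COX4 transcript was not searched. Outside the subunits CCAAT was found in 14 of 15 ATP synthase genes, 7 of 10 genes of the bc1 complex and cytochrome c, 14 of 25 assembly and translation factor genes and 1 of 5 regulator genes. Of the isoform genes, COX5A and COX5B included, 3 of 5 aerobic and 1 of 4 hypoxic ones had it. One box per gene is shown, the one nearest to the start codon among those upstream of it, written on the coding strand with the box or its complement in capitals.
COX5A, 145 nt upstream: ttgtgATTGGcccta
COX5B, 72 nt upstream: atagaCCAATtattt
COX6, 215 nt upstream: acctaATTGGtccgg
COX7, 162 nt upstream: acttgATTGGctacg
COX8, 201 nt upstream: ttgcaCCAATcatac
COX9, 147 nt upstream: acctgATTGGcccgc
COX12, 205 nt upstream: attgaCCAATcaatt
COX13, 212 nt upstream: tcccaCCAATgagag

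The boxes of 7 genes lay between 145 and 215 nt upstream of the start codon, and COX5B had its nearest one at 72 nt, with another at 247 nt. COX5A had a further box at 170 nt. Further matches in COX7 and COX9 were inside the coding region.

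ATTGTT, the core of the site bound by Rox1, which represses hypoxic genes in the presence of oxygen, was found in 6 of 9 subunit genes, against 34.3% of all promoters. COX5B had matches at 224 and 81 nt upstream of the start codon, and COX5A 1 at 95 nt. COX6 had 3, COX7 a pair, and COX4 and COX13 1 each. All 4 annotated hypoxic isoform genes had this core, and 2 of the 5 aerobic ones. The matches at 56 nt in COX4, 40 nt in COX6, 14 nt in COX7 and 12 nt in COX13 lie inside the annotated 5' UTR, and the one 4 nt upstream in COX6 runs into the start codon. In COX4 and COX13 these are the only matches. COX13 thus had none before its annotated transcript within the window. The COX4 match reads AACAAT on the coding strand, and its AAC is the end of the branch point sequence TACTAAC described above. It thus lies inside the intron-like stretch of the COX4 5' UTR. The part of the COX4 window before the start codon lay wholly inside the annotated 5' UTR, so the sequence before the COX4 transcript was not searched. In the 9 genes no ATTGTT match shared bases with a CCAAT match. The consensus site of the heme-responsive activator Hap1 was in none of the 9, against 0.0667% of all promoters, those of MNN2 and QCR6. Matches are descriptions of letters, whether present or absent, and binding was not measured.

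No subunit transcript overlapped another annotated mRNA, against 16.8% of all mRNAs, but few of their R64 neighbours are annotated. The annotated neighbour also adjoined the gene in R64 for 2 of 9 subunit genes downstream and 3 of 9 upstream, against 1574 of 2987 and 1608 of 2981 among all mRNAs, so the count of 0 says little about overlap. The 9 genes lie on 7 chromosomes, with COX4 and COX13 on chromosome 7 and COX8 and COX12 on chromosome 12. Many yeast genes are not listed in the annotation, so only neighbours that also adjoin the subunit gene in R64 give a true gap. There were 3 on the upstream side. COX5A began 150 nt after the end of MSG5, a phosphatase gene on the same strand, and COX4 began 360 nt from TPN1, a vitamin B6 transporter gene on the same strand. COX9 began 370 nt from IDP1, a mitochondrial isocitrate dehydrogenase gene transcribed the other way. The median upstream gap over 1608 adjoining pairs was 277 nt (quartiles 178.8 and 532 nt).

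On the downstream side COX6 ended 216 nt before CIC1, a ribosome assembly gene, and COX5B 206 nt before HPM1, a protein methyltransferase gene, both on the same strand. The median downstream gap over 1574 adjoining pairs was 118 nt, with quartiles of -49 and 254.8 nt, where a negative gap is an overlap. The 453 nt 3' UTR of COX6 and the 34 nt 3' UTR of COX5B were thus followed by gaps of nearly equal size.

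The remaining neighbours were separated by genes that the annotation does not list. COX13 and COX4 face each other across 4016 nt of chromosome 7 that held 1 annotated mRNA, that of the ribosomal protein gene RPS26A, and 3 genes in R64. RPS26A was 2739 nt from COX13 and 474 nt from COX4. COX6 was 304 nt from SMF2, a manganese transporter gene, with 1 R64 gene between, and COX9 was 899 nt from BDF2, a bromodomain gene, with CBS1 between, an activator of cytochrome b translation. In R64 the gene next to COX7 upstream is PET111, which activates translation of a core oxidase subunit in mitochondria. The other gaps, around COX5A, COX5B, COX7, COX8, COX12 and COX13, ran from 2518 nt between COX13 and YGL193C to 12550 nt between COX12 and SMF3.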

How the data were processed

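The authors deposited an annotation of yeast transcripts, exons, 5' UTRs and 3' UTRs by chromosome, start and end, counted from 1 per the design text. The sources used here do not name the genome build, nor how UTR ends were set. Lengths are end minus start plus 1, and introns are gaps of at least 10 nt between exons. No value per library was used, and no test was run.

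Symbols and sequence came from R64, which matched 2999 of 3000 mRNAs by name. The deposited coordinates do not follow R64, since 428 of 3000 coding regions (14.3%) read ATG to stop at R64 positions, so sequence was taken at R64's own coordinates, with window lengths from the annotation. The coding lengths of all 9 subunit genes and of 2979 mRNAs equal those of R64. Sites were searched with exact letters. Proteins were translated from R64 and aligned globally with BLOSUM62 (Biopython 1.88). Length reading and site searches were tested on simulated data.

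The genes, the comparison lists and most searches were chosen with earlier results of these data known. TATATA, the start and stop codon letters, base composition and the COX4 acceptor were looked at after the lengths were seen, and so were the counts within small mRNAs and of 3' UTRs longer than coding regions. The COX4 donor and branch point search follows an earlier look at these data. Genes named are the 9, their neighbours, each list's longest and shortest UTR, the isoform pairs and the 3 mRNAs nearest to COX5A and COX5B in lengths. Others named for their TGTANATA or Hap1 matches, or as R64 neighbours, were picked after their values were seen.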

Additional observations from a re-analysis of the deposited data

How the results depend on the processing

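The median 3' UTR of the 9 genes stood at percentile 92.8 of all mRNAs and stayed within the 95% Wilson interval of that share against mRNAs with both UTRs, UTRs of at least 10 nt, mRNAs without introns or small mRNAs, and without COX5B, but the geometric mean, which the 34 nt of COX5B lowers, stood at 87.1. The median 5' UTR stood at percentile 50.2, and at 48.2 among mRNAs without introns, 67.2 among mRNAs with at most 600 nt of coding sequence and 55.5 for the geometric mean. Windows of 50 nt before every start codon held an ATG in 3 genes instead of 1, against 12.8% of all mRNAs, because those windows reach past the annotated 5' UTRs of COX5A and COX5B, whose nearest ATG begins 38 and 30 nt upstream. Overlaps, CCAAT and TGTANATA counts stayed within 1.5 times under their alternatives, though an overlap count of 0 could not change when at least 20 nt was required. Of 72 values of single genes, 59 stayed within their interval and 13 moved, all percentiles of 5' UTR or coding length. Among those that stayed are untranslated shares with introns included, which could differ only in COX5B, the single gene with an annotated intron. No paired analysis was possible because each gene has 1 annotated value. Depth could not be weighed.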

Other observations

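Regulators of respiratory genes were thinly annotated: 5 of 11 on the list were present, and 4 had a 3' UTR. Those of PUF3, which encodes Puf3 itself, and of TUP1, a corepressor that acts with Rox1, were 328 and 324 nt. That of CYC8, the partner of Tup1, was 287 nt, and that of IXR1, a repressor of hypoxic genes, 134 nt. PUF3 also had a 5' UTR of 272 nt, TUP1 202 nt and IXR1 183 nt. HAP1 was listed with a coding region of 4509 nt and no UTR. HAP2, HAP3, HAP4, HAP5, ROX1 and MOT3 were not analysed here.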
